A study of Mus musculus with 28 samples.

Results

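Genes of inflammatory cytokines and of prostaglandin synthesis were followed through RNA-seq libraries of a mouse Lewis lung carcinoma line, 3LL, and of the tumors that these cells formed. The set held 10 genes chosen by name: the cytokines Il1a, Il1b, Il6, Tnf, Il10 and Tgfb1, the interleukin-1 receptor antagonist Il1rn, and the enzymes Ptgs1, Ptgs2 and Ptges. Of these 10, 8 had a row among the 43143 rows of the deposited table, 1 row each, and Il1a and Il10 were not analysed here. The rows of Il1rn, Il6 and Tnf carried a gene identifier. The rows of Il1b and Tgfb1 were retained-intron transcripts, those of Ptgs1 and Ptges were processed transcripts without a coding sequence and that of Ptgs2 was a protein-coding transcript, so that for these 5 genes the value belongs to 1 transcript and not to the whole gene.

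The study compared 7 groups of 4 libraries. Cultured cells were wild-type (WT), Keap1-KO (KEAP1-KO here) or Keap1-Nrf2-DKO (DKO here), and tumors had been grown from the same lines under the skin of male albino C57BL/6 mice that were 6 weeks old at injection and carried the tumors for 10 days. KEAP1 is the protein that keeps the transcription factor NRF2 low, so its loss activates NRF2, and the DKO cells lack both. The guides targeted exon 2 of Keap1 and exon 5 of Nrf2, and the knockout lines had each been grown from a single colony. In Experiment A each mouse bore WT tumors on the left flank and KEAP1-KO tumors on the right, and in Experiment B KEAP1-KO tumors on the left and DKO tumors on the right. Genotype and flank therefore cannot be told apart within an experiment, and which tumors shared a mouse is not given in the labels. The extraction protocol of the labels names livers, whereas titles and methods name cultured cells and tumors.

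The libraries held between 4222381 and 7524293 reads, with a median of 5619800. The Keap1 row ranged from 9.35 to 9.56 in WT cells and from 7.52 to 7.65 in KEAP1-KO cells, and from 8.78 to 8.98 in the WT and from 7.13 to 7.86 in the KEAP1-KO tumors of A, on the deposited scale of log2(normalized count + 4). The row of Nfe2l2, which encodes NRF2, was 5.59 on average in both groups of Experiment B and did not show the deletion. Nqo1, a classical NRF2 target, averaged 12.23 in KEAP1-KO tumors and 5.93 in DKO tumors of Experiment B. Ptprc, the gene of the leukocyte protein CD45, held at most 2 reads in any cultured library and between 73.4 and 511 normalized counts in the tumors, in which bulk RNA comes from cancer cells and host cells together.

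Interleukin-1 beta and TNF are early alarm cytokines made mainly by macrophages, monocytes and neutrophils, and Il1rn encodes a secreted protein that occupies the IL-1 receptor without signalling. Prostaglandin E2 is made in steps: a phospholipase frees arachidonic acid, the cyclooxygenases COX-1 (Ptgs1, mostly constitutive) and COX-2 (Ptgs2, inducible) turn it into prostaglandin H2, and microsomal prostaglandin E synthase-1 (Ptges) completes the product. Tumor cells as well as stromal and immune cells can express the enzymes, and prostaglandin E2 is known for dampening immune responses in tumors.

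RefSeq promoter windows, 250 bases before to 50 bases after the start, were found for 9 of the genes, all but Il10, in the GRCm38.p6 build. The windows of Ptgs2, Il1b and Tnf are shown because these genes had the largest called differences between KEAP1-KO and WT tumors. Capitals mark matches to 6 searched motifs. The cAMP response element was searched as TGACGT, the C/EBP motif as TTGCNNAA and the antioxidant response element as TGACNNNGC, each on both strands. The letters of the E-box were CACGTG and those of the NF-kappaB motif were GGGANTTCC, also on both strands. The TATA box was searched as TATAAA on the strand of the gene alone.
Ptgs2, chr1:150099781-150100080, plus strand: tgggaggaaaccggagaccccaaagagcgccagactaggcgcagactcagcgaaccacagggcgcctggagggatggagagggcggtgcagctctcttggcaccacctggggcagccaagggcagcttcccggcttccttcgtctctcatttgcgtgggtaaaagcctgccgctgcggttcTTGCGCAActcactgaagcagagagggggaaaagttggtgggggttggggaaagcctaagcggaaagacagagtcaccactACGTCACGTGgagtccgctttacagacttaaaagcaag
Il1b, chr2:129371090-129371389, minus strand: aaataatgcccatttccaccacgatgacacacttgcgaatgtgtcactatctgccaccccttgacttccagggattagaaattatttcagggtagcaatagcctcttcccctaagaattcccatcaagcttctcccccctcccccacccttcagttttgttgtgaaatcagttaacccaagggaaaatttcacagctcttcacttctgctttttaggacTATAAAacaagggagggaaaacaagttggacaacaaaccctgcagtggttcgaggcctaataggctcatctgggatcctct
Tnf, chr17:35201958-35202257, minus strand: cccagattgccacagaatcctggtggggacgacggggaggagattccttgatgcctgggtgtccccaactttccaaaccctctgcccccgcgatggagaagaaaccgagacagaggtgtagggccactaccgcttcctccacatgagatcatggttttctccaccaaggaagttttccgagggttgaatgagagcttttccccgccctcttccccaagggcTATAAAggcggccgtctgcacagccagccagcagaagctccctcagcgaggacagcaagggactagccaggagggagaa
In these letters Ptgs2 held a C/EBP motif, which reads the same on both strands, and a cAMP response element that overlaps an E-box, whereas Il1b and Tnf each held a TATA box. Among 32851 promoter windows of the same length, 10.8% held the C/EBP letters, 7.51% the cAMP response element, 7.15% the E-box, 8.32% the TATA box, 12.4% the antioxidant response element and 1.68% the NF-kappaB letters. No window of these 9 genes matched the searched letters of the antioxidant response element or of the NF-kappaB motif. Only these exact letters were searched, so longer or otherwise spelled forms of either site would not be found. Il6 held a cAMP response element and a C/EBP match. A match of letters is a description of the window and not of a bound site.

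Il1b was the cytokine with the widest range. It had 0 reads in all 12 libraries of cultured cells. In WT tumors it measured 8.01, 7.37, 8.10 and 9.10 on the log2 scale, and in the KEAP1-KO tumors of A it measured 5.57, 5.04, 5.0 and 5.75. All WT tumors were thus above all KEAP1-KO tumors. In Experiment B the KEAP1-KO tumors measured 4.46, 5.55, 5.38 and 5.41 and the DKO tumors 6.74, 6.96, 7.11 and 7.10, again without overlap. The order of group means was WT tumors (8.15), DKO tumors (6.98), then the KEAP1-KO tumors of A (5.34) and B (5.20), and only the KEAP1-KO groups overlapped with each other.

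**Figure D1:**
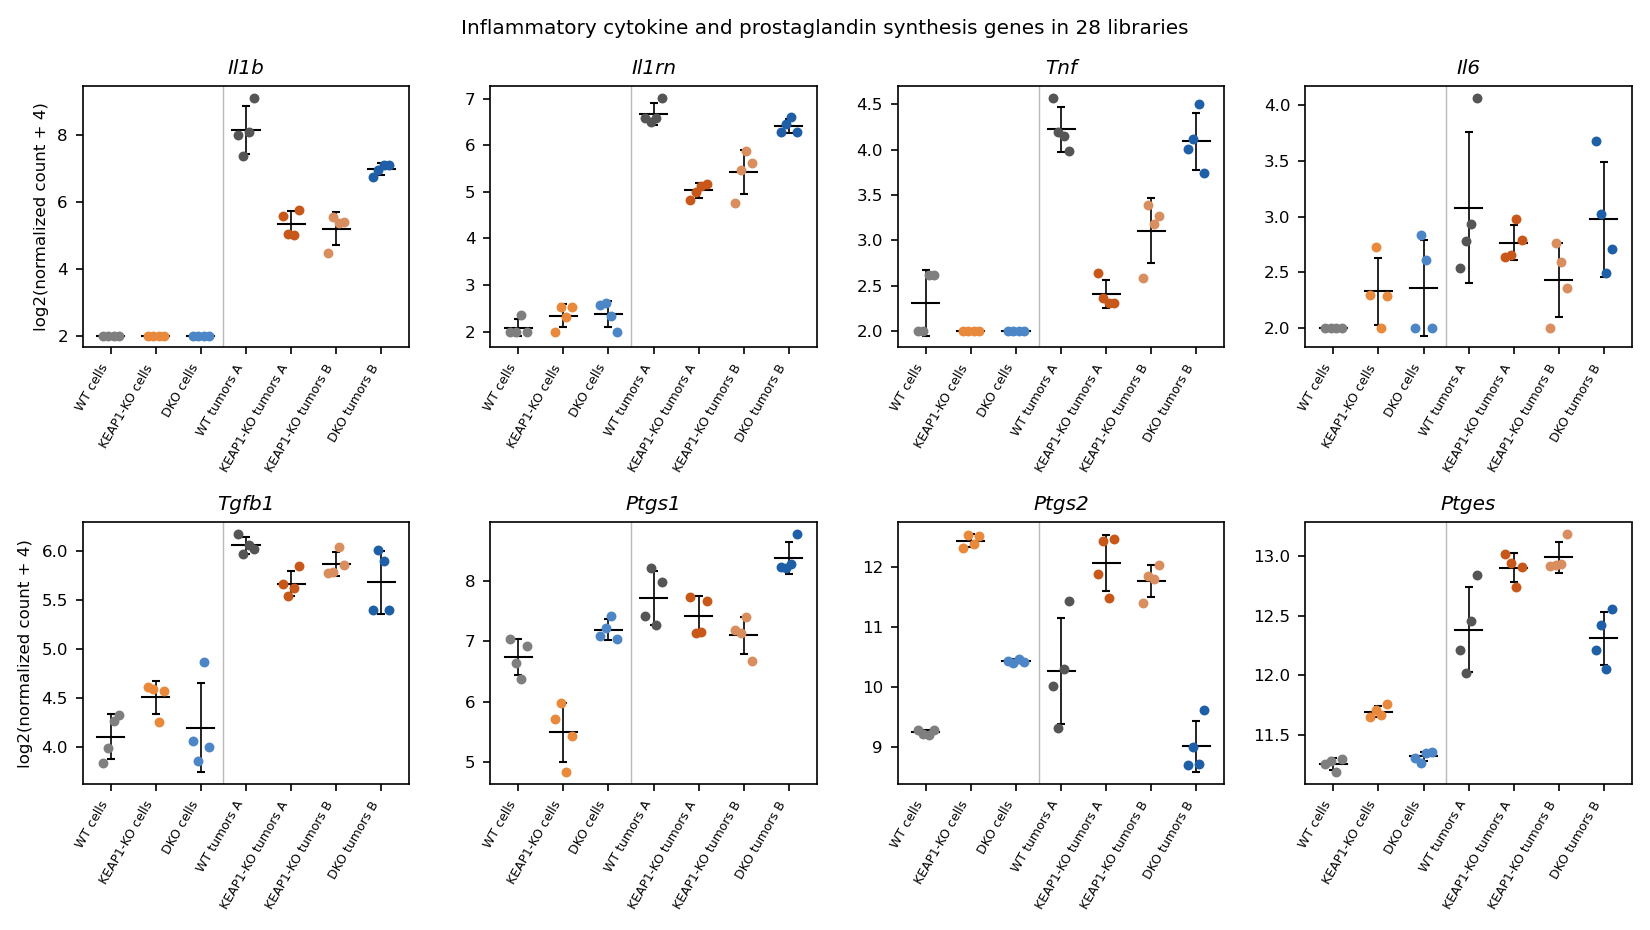
Each panel plots 1 gene, with log2(normalized count + 4) on the vertical axis and the 7 groups on the horizontal axis. Points are libraries (4 per group), the horizontal bar is the mean and the error bar the SD. Il1b, Il1rn and Tnf sit near the floor of 2 in cells and have lower points in the KEAP1-KO tumors than in the other tumors, while Ptgs2 and Ptges have their highest points in KEAP1-KO groups.

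In KEAP1-KO against WT tumors, Il1b fell by 2.81 on the log2 scale (SE 0.31, adjusted p = 1.21e-05, limma with Benjamini-Hochberg adjustment), Tnf fell by 1.82 (SE 0.24, adjusted p = 6.71e-05) and Il1rn fell by 1.64 (SE 0.20, adjusted p = 3.19e-05). Ptgs2 rose by 1.79 (SE 0.35, adjusted p = 0.00235) and Ptges by 0.52 (SE 0.15, adjusted p = 0.0254). Tgfb1 (difference -0.39, adjusted p = 0.0989) and Ptgs1 (-0.29, adjusted p = 0.471) did not pass the threshold of 0.05. So 5 of the 7 genes tested were called, 3 lower and 2 higher, where 13.1% of all rows were called, 7.49% lower and 5.61% higher. The filter on low values (a row needed 5 normalized counts or more in 4 or more of the libraries) left out Il6. Tnf reached 5 normalized counts in all 4 libraries of a group only in WT and DKO tumors, so it passed the filter through the groups where it is high. With the filter on a mean of at least 25, which left Tnf out, 2 of 6 genes tested were lower and 2 higher. Of 15016 rows 2003 were then lower and 1826 higher. The Ptges call did not hold in 8 of 17 alternatives, among them each fit without WT tumor 1 or 2 or KEAP1-KO tumor 1, 2 or 4 (adjusted p between 0.00166 and 0.113 over all).

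In DKO against KEAP1-KO tumors, these 5 genes moved the other way: Il1b rose by 1.78 (SE 0.31, adjusted p = 0.00137), Il1rn by 0.99 (SE 0.20, adjusted p = 0.00448) and Tnf by 0.98 (SE 0.24, adjusted p = 0.0155), whereas Ptgs2 fell by 2.76 (SE 0.35, adjusted p = 9.01e-05) and Ptges by 0.68 (SE 0.15, adjusted p = 0.00633). Ptgs1 also rose, by 1.28 (SE 0.22, adjusted p = 0.00132), and Tgfb1 was not called (-0.19, adjusted p = 0.548). This made 6 of 7 genes called, 4 higher and 2 lower, beside 8.86% of all rows, 4.22% higher and 4.64% lower. With the filter on a mean of at least 25, which left Tnf out, 3 of 6 genes were higher and 2 lower, beside 1257 and 1600 of 15016 rows. The Tnf call was lost in 4 of 16 alternatives, among them those without KEAP1-KO tumor 1 (adjusted p = 0.0513), without DKO tumor 3 (0.0581) and with only the groups compared (0.0559), and its differences over 16 alternatives lay between 0.81 and 1.35.

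**Figure D2:**
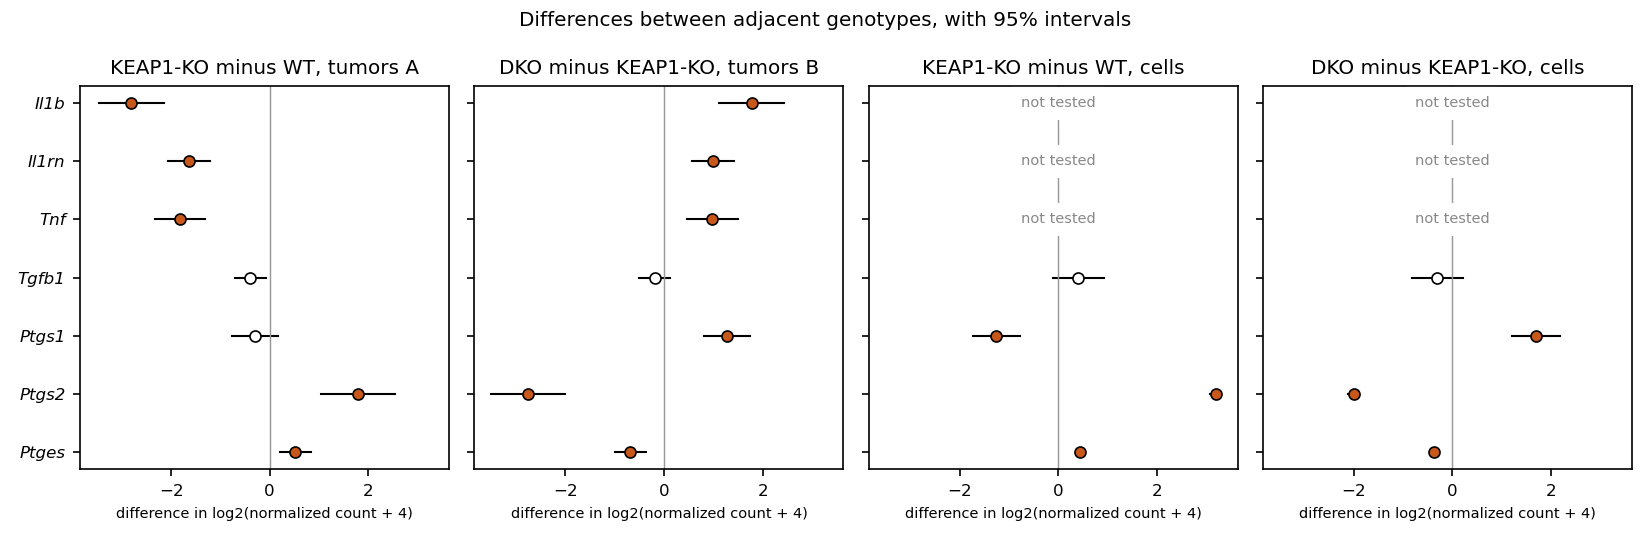
Differences in log2(normalized count + 4) between adjacent genotypes in tumors (left pair of panels) and in cells (right pair), 1 row per gene. Points are limma estimates, bars their 95% intervals, and filled points have an adjusted p under 0.05. In tumors Il1b, Il1rn and Tnf lie on one side of 0 and Ptgs2 and Ptges on the other, with the sides exchanged between the comparisons.

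Il1rn kept a narrower range than Il1b. Its values were 6.58, 6.50, 6.58 and 7.02 in WT tumors, 4.83, 4.99, 5.13 and 5.17 in KEAP1-KO tumors of A, 4.75, 5.46, 5.88 and 5.62 in KEAP1-KO tumors of B and 6.29, 6.47, 6.61 and 6.29 in DKO tumors. WT and DKO tumors overlapped, and both lay above every KEAP1-KO tumor. Cultured cells had at most 2 reads of this antagonist per library.

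Tnf was a low row throughout. WT tumors held 22, 15, 15 and 14 reads and KEAP1-KO tumors of A held 2, 1, 1 and 1. KEAP1-KO tumors of B held 2, 7, 5 and 5 reads and DKO tumors 11, 13, 23 and 11. Since the added 4 shrinks differences of low genes, the reads were also summed: their share was 11.6 times higher in WT than in KEAP1-KO tumors of A (66 against 5 reads, exact 95% counting interval 4.74 to 37.0) and 2.98 times higher in DKO than in KEAP1-KO tumors of B (58 against 19 reads, 1.75 to 5.31). These intervals cover counting error only. WT cells had 0, 0, 2 and 2 reads, and KEAP1-KO and DKO cells had none.

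Il6, a cytokine of the acute-phase response, was close to the limit of detection. WT tumors held 2, 3, 4 and 15 reads, KEAP1-KO tumors of A 2, 2, 4 and 3, KEAP1-KO tumors of B 0, 3, 2 and 1, and DKO tumors 8, 4, 2 and 3. All 4 tumor groups overlapped, with WT tumor 4 alone above the rest. Without the filter the differences were -0.31 in A (adjusted p = 0.651) and 0.55 in B (adjusted p = 0.419), neither of them called. In summed reads the share was 1.92 times higher in WT than in KEAP1-KO tumors of A (24 against 11 reads, exact 95% counting interval 0.906 to 4.34) and 2.77 times higher in DKO than in KEAP1-KO tumors of B (17 against 6 reads, 1.04 to 8.58). Without WT tumor 4, which held 15 of the 24 reads, the ratio of A was 0.996 (0.365 to 2.64). Without DKO tumor 1 that of B was 1.86 (0.592 to 6.35), and its interval also included 1 without DKO tumor 2 or KEAP1-KO tumor 1 or 4, but not without any of the other 4 libraries. That of A left out 1 without WT tumor 1 or 2. Single libraries thus decided on which side of 1 these intervals fell. Cultured cells held at most 3 reads per library.

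The leukocyte markers Ptprc, Coro1a, Laptm5, Cd53 and Itgb2 moved with these 3 cytokine rows. All 5 fell in KEAP1-KO tumors against WT and all 5 rose in DKO tumors against KEAP1-KO. Their summed normalized counts ranged from 1971 to 2448 in WT tumors, 508 to 583 in KEAP1-KO tumors of A, 767 to 970 in KEAP1-KO tumors of B and 1447 to 2130 in DKO tumors, against 5.24 to 51.5 in cells. Of 13 macrophage and monocyte markers, 12 fell in KEAP1-KO against WT tumors and 9 rose in DKO against KEAP1-KO tumors. Of all rows 7.49% fell in the former and 4.22% rose in the latter. Of 5 measured neutrophil markers, 4 fell in KEAP1-KO against WT tumors and 1 rose in DKO against KEAP1-KO tumors. Neutrophil sums ranged from 429 to 1840 in WT tumors and from 114 to 397 in KEAP1-KO tumors of A. In B they were 101 to 255 in KEAP1-KO and 225 to 299 in DKO tumors, with overlap. Among the macrophage markers Adgre1 was at 0 in every cultured library. Many marker rows are single transcripts and not gene rows. Among others, those of Ptprc, Coro1a, Cd14, Mrc1 and S100a8 are retained introns and those of C1qc, Cd68, Itgam and Csf3r processed transcripts. For these the value is not that of the coding gene. In bulk tumors fewer cells of a type and less RNA per cell cannot be told apart.

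**Figure D3:**
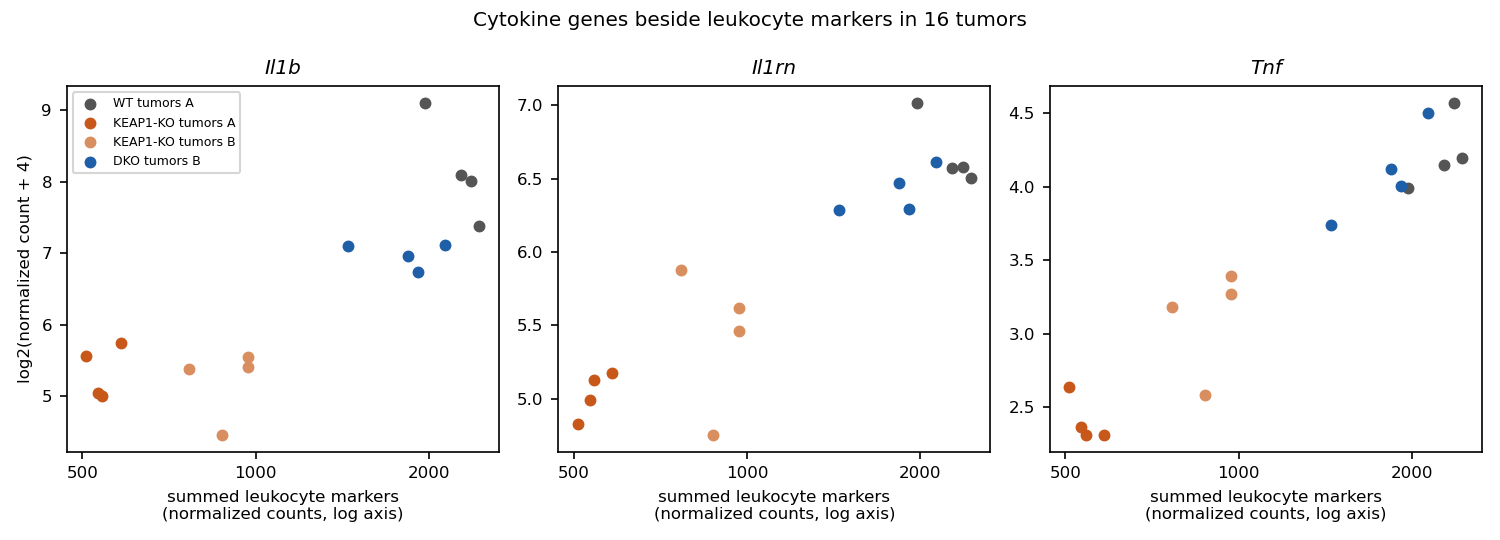
Il1b, Il1rn and Tnf, as log2(normalized count + 4), against the summed normalized counts of 5 leukocyte markers on a log axis, with 1 point per tumor in 4 groups. The KEAP1-KO tumors lie at 508 to 970 on the horizontal axis and the WT and DKO tumors at 1447 to 2448; WT tumor 4 has the highest Il1b (9.10) at the lowest marker sum of its group.

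The 3 rows were also set relative to these sums, as log2 of the normalized counts with nothing added. Il1b relative to leukocyte markers was lower by 0.88 in the KEAP1-KO tumors of A, with overlapping groups (two-sided exact permutation p = 0.114), and 0.88 higher in DKO than in KEAP1-KO tumors without overlap (p = 0.0286, the smallest that 4 against 4 tumors allow). Relative to macrophage markers it was 1.47 lower and 1.18 higher, both without overlap (exact p = 0.0286 each). For Il1rn the same 4 differences lay between -0.30 and 0.33, and the groups overlapped in all of them (exact p of 0.171 or more). Tnf was lower by 1.49 relative to leukocyte and by 2.09 relative to macrophage markers in A (exact p = 0.0286 each), values that rest on 1 or 2 reads per KEAP1-KO tumor. In B it was 0.53 higher relative to leukocyte markers, with overlap (exact p = 0.171), and 0.83 higher relative to macrophage markers (exact p = 0.0286). None of the 12 tests passed the adjustment over them (lowest adjusted exact p = 0.0571). No exact p here can be under 0.0286, so a pass needed more tests at that value than there were. The adjustment therefore cannot decide on single differences. With log2(normalized count + 4) in place of the counts, the Tnf difference of A turned to 0.24 higher relative to leukocyte markers and became -0.35 relative to macrophage markers. That of B became -0.04 relative to leukocyte and 0.25 relative to macrophage markers. The groups overlapped in each of these, so that for this low row the result depends on the added 4. The part of the marker levels in the Il1b, Il1rn and Tnf differences was otherwise not tested.

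Ptgs2 ran opposite to the cytokines. WT tumors measured 10.02, 9.31, 10.30 and 11.43, and KEAP1-KO tumors of A 11.87, 12.42, 11.47 and 12.45. The highest WT tumor, number 4, lay just below the lowest KEAP1-KO tumor. In Experiment B the KEAP1-KO tumors measured 11.40, 11.84, 11.80 and 12.02 and the DKO tumors 8.70, 8.99, 8.72 and 9.62, far apart. The difference of Experiment A was called in all 17 alternatives, between 1.47 and 2.18, and that of Experiment B as well, between -2.96 and -2.65.

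In cultured cells the Ptgs2 groups were tighter. WT cells measured 9.29, 9.21, 9.19 and 9.28, KEAP1-KO cells 12.31, 12.53, 12.38 and 12.51 and DKO cells 10.43, 10.39, 10.47 and 10.41. The KEAP1-KO cells were higher than WT by 3.19 (SE 0.05, adjusted p = 7.04e-13), a 9.13-fold difference of normalized count + 4, and DKO cells fell by 2.01 from KEAP1-KO (SE 0.05, adjusted p = 6.38e-11). DKO cells stayed 1.19 above WT (SE 0.05, adjusted p = 9.80e-09). The comparisons of cells share the KEAP1-KO or the WT libraries and are not independent.

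Ptges, which acts after the cyclooxygenases, followed Ptgs2 with smaller steps. WT tumors measured 12.22, 12.02, 12.46 and 12.84, KEAP1-KO tumors of A 13.02, 12.95, 12.74 and 12.91, KEAP1-KO tumors of B 12.92, 12.93, 12.94 and 13.19, and DKO tumors 12.21, 12.42, 12.05 and 12.56. WT tumor 4 lay inside the KEAP1-KO range of A, while the groups of B were apart. In cells the values were 11.25, 11.28, 11.18 and 11.29 for WT, 11.65, 11.71, 11.67 and 11.75 for KEAP1-KO and 11.30, 11.26, 11.34 and 11.35 for DKO. KEAP1-KO cells were higher than WT by 0.44 (SE 0.04, adjusted p = 4.96e-06) and DKO cells fell by 0.38 from KEAP1-KO (SE 0.04, adjusted p = 3.10e-05). DKO and WT cells overlapped (0.06, adjusted p = 0.316). A further row annotated to Ptges, a low processed transcript, was not called in either tumor comparison (0.98, adjusted p = 0.220, and -0.14, adjusted p = 0.920).

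Ptgs1, the constitutive cyclooxygenase, went the other way from Ptgs2 in cells. WT cells measured 7.04, 6.64, 6.38 and 6.92, KEAP1-KO cells 5.71, 5.99, 4.83 and 5.44 and DKO cells 7.09, 7.22, 7.42 and 7.04. It fell by 1.25 in KEAP1-KO cells (SE 0.22, adjusted p = 0.00176) and rose by 1.70 in DKO cells (SE 0.22, adjusted p = 0.000287). In tumors WT (7.42, 8.21, 7.27 and 7.98) and KEAP1-KO of A (7.73, 7.15, 7.15 and 7.68) overlapped, and the DKO tumors (8.24, 8.22, 8.29 and 8.77) were above the KEAP1-KO tumors of B (7.20, 7.14, 7.40 and 6.68). The annotation GENCODE vM21 assigns 3 further rows of the table to Ptgs1, and 2 of them, both retained introns, were called in the same direction in KEAP1-KO against WT cells (-0.81 and -0.87), in DKO against KEAP1-KO cells (0.88 and 1.02) and in DKO against KEAP1-KO tumors (0.67 and 0.59). The last row averaged at most 3.10 on the log2 scale in any group and was not called in the tumors.

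Tgfb1, a cytokine that restrains immune cells, was not called between any genotypes. WT tumors measured 6.18, 5.98, 6.07 and 6.03, KEAP1-KO tumors of A 5.66, 5.55, 5.63 and 5.85, KEAP1-KO tumors of B 5.78, 5.79, 6.04 and 5.86 and DKO tumors 5.40, 6.02, 5.90 and 5.41. WT and KEAP1-KO tumors of A did not overlap, but the difference of -0.39 (95% interval -0.70 to -0.08) missed the threshold after adjustment. Cells ranged from 3.83 to 4.87 with all 3 genotypes overlapping. A further retained-intron row of Tgfb1 was not called in either tumor comparison.

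Across the cells, 3 of the 4 genes tested were called in KEAP1-KO against WT (2 higher and 1 lower), beside 15.5% of all rows, 8.13% higher and 7.33% lower. In DKO against KEAP1-KO cells 3 of 4 were called (1 higher and 2 lower), beside 8.83%, 3.98% higher and 4.85% lower. In DKO against WT cells 1 of 4 was called, Ptgs2, beside 17.7%. Il1b, Il1rn, Il6 and Tnf did not pass the filter in cells.

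The KEAP1-KO tumors of the 2 experiments were compared as a check between flanks and experiments. None of the 7 genes was called in B against A with limma, beside 0.164% of all rows, and 1 gene, Tnf, had an unadjusted p under 0.05 (difference 0.70, adjusted p = 0.446). The summed Tnf reads were 3.75 times higher in B (19 against 5 reads, exact 95% counting interval 1.35 to 12.8), in the direction of the leukocyte sums. In DKO tumors against WT tumors 2 of 7 genes were called, beside 10.6% of all rows. Il1b was 1.17 lower (adjusted p = 0.0234) and Ptgs2 1.26 lower (adjusted p = 0.0304), and these groups were of different experiments. Both calls were lost without WT tumor 4 (adjusted p = 0.0628 and 0.0738), DKO tumor 1 (0.0660 and 0.0851) or DKO tumor 2 (0.0504 and 0.0627), and that of Ptgs2 also without WT tumor 3 (0.0677) or DKO tumor 3 (0.0778). Over all alternatives the adjusted p lay between 0.00720 and 0.0660 for Il1b and between 0.00643 and 0.0851 for Ptgs2. Tgfb1 was called without DKO tumor 2 (difference -0.49, adjusted p = 0.0473), and Ptgs1 without WT tumor 2 (0.82, adjusted p = 0.0293), with a mean of at least 25 (0.0416), with quantile normalization (0.0455) and with rescaling (0.0398).

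Tumors and the cells they came from differed widely, and these comparisons change tissue, host cells and growth conditions together. Il1b, Il1rn and Tnf passed the filter through the tumors alone, so that their direction was set by the filter and they are left out of the counts. The other 4 genes were all higher in WT tumors than in WT cells, beside 38.8% of all rows called, with the median of all rows 0.20 higher in tumors (-0.05 with quantile normalization and 0.44 with rescaling without the 20 highest rows). Il1b was at least 93.8-fold higher in WT tumors, at least 41.6-fold in DKO tumors and at least 13.7-fold and 12.5-fold in KEAP1-KO tumors of A and B, counted against a floor of 3 reads per cultured library. In WT tumors Tgfb1 was higher by 1.96, Ptgs1 by 0.97, Ptgs2 by 1.02 and Ptges by 1.13. In KEAP1-KO tumors 3 of the 4 were called in A (39.6% of all rows) and 3 in B (38.8%), all higher. Ptgs2 was not among them: it was 0.38 lower in A (adjusted p = 0.309), a direction that turned to 0.15 higher with rescaling, and 0.67 lower in B (adjusted p = 0.0624). Of these tumors, B gave a call for Ptgs2 with only the groups compared (adjusted p = 0.00135) and with the filter on a mean of 25 (0.0412). In DKO tumors all 4 were called (43.5% of all rows), 3 higher than in DKO cells and Ptgs2 lower by 1.42 (SE 0.28, adjusted p = 0.000162).

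The difference between genotypes was itself compared between tumors and cells for the 4 genes that were measurable in both. For KEAP1-KO minus WT, 1 of these 4, Ptgs2, differed between tumors of A and cells (-1.40, SE 0.40, adjusted p = 0.0357), beside 5.38% of all rows. The rise of Ptgs2 was thus 1.79 in tumors and 3.19 in cells, but this difference was called in only 10 of 24 alternatives and was lost without any 1 of 11 libraries, WT tumor 4 and all WT cells among them (adjusted p between 0.00267 and 0.0991 over the 24). Tgfb1 (-0.79, adjusted p = 0.0778) and Ptgs1 (0.96, adjusted p = 0.0970) missed the threshold, but Tgfb1 passed it with only the groups compared (0.0365) and Ptgs1 without KEAP1-KO cells 2 (0.0465) or WT tumor 2 (0.0459). For DKO minus KEAP1-KO none of the 4 was called with limma, beside 3.67% of all rows, and none had a 95% interval that left out 0. Il1b, Il1rn and Tnf had too few reads in cells for such a comparison. The differences of Ptges between tumors and cells were 0.08 (95% interval -0.26 to 0.42) and -0.30 (-0.64 to 0.04).

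The genes of the pathway lists were also read from 1 row each. Of the 44 that the rule for named genes picked from these lists, some of which are described here, 16 had a gene row and 6 a protein-coding transcript, while 11 rows were retained introns, 5 processed transcripts, 5 targets of nonsense-mediated decay and 1 was not in the annotation used, so that for those the value is not that of the coding gene. Among prostaglandin genes Abcc4 is a processed transcript and Alox5, Hpgds and Ptger2 are retained introns.

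Genes around the prostaglandin pathway included several that moved in the direction of Ptgs2. Of 21 tested in tumors, 5 rose and 6 fell in KEAP1-KO against WT (median difference 0.18, all rows -0.03), and 2 rose and 5 fell in DKO against KEAP1-KO (median -0.04, all rows 0.00). Of all rows 5.61% rose and 7.49% fell in the former, and 4.22% and 4.64% in the latter. Pla2g4a, the cytosolic phospholipase that releases arachidonic acid, rose by 1.69 (SE 0.11) in KEAP1-KO tumors, fell by 2.05 (SE 0.11) in DKO tumors, rose by 1.15 in KEAP1-KO cells and fell by 1.42 in DKO cells. Ptgr1, a reductase that inactivates prostaglandins and leukotriene B4 and a known NRF2 target, rose by 1.64 and fell by 2.12 in the tumor comparisons, and rose by 1.52 and fell by 2.89 in the cells. Abcc4, a transporter that exports prostaglandins, rose by 2.55 in KEAP1-KO tumors and by 1.29 in KEAP1-KO cells and fell by 1.30 in DKO cells. Ptgir, the prostacyclin receptor, fell by 1.80 in DKO tumors. All of these had an adjusted p of 4.36e-05 or less.

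Other genes of the same list moved the other way. Alox5, the 5-lipoxygenase of myeloid cells, fell by 1.64 (SE 0.35, adjusted p = 0.00489) and its partner Alox5ap by 1.03 (SE 0.20, adjusted p = 0.00191) in KEAP1-KO tumors, and Alox5ap rose by 1.04 (SE 0.20, adjusted p = 0.0025) in DKO tumors. Hpgds, a prostaglandin D synthase of blood cells, fell by 0.91 in KEAP1-KO tumors (adjusted p = 0.0147). Ptger2, a prostaglandin E2 receptor, had no reads in KEAP1-KO tumors of B and was called higher in DKO tumors (adjusted p = 0.0334). In cells 12 genes of this list were tested, of which 6 rose and none fell in KEAP1-KO (median 1.09, all rows 0.02) and 5 fell and none rose in DKO (median -0.52, all rows -0.03). Here 8.13% of all rows rose in KEAP1-KO and 4.85% fell in DKO.

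**Figure D4:**
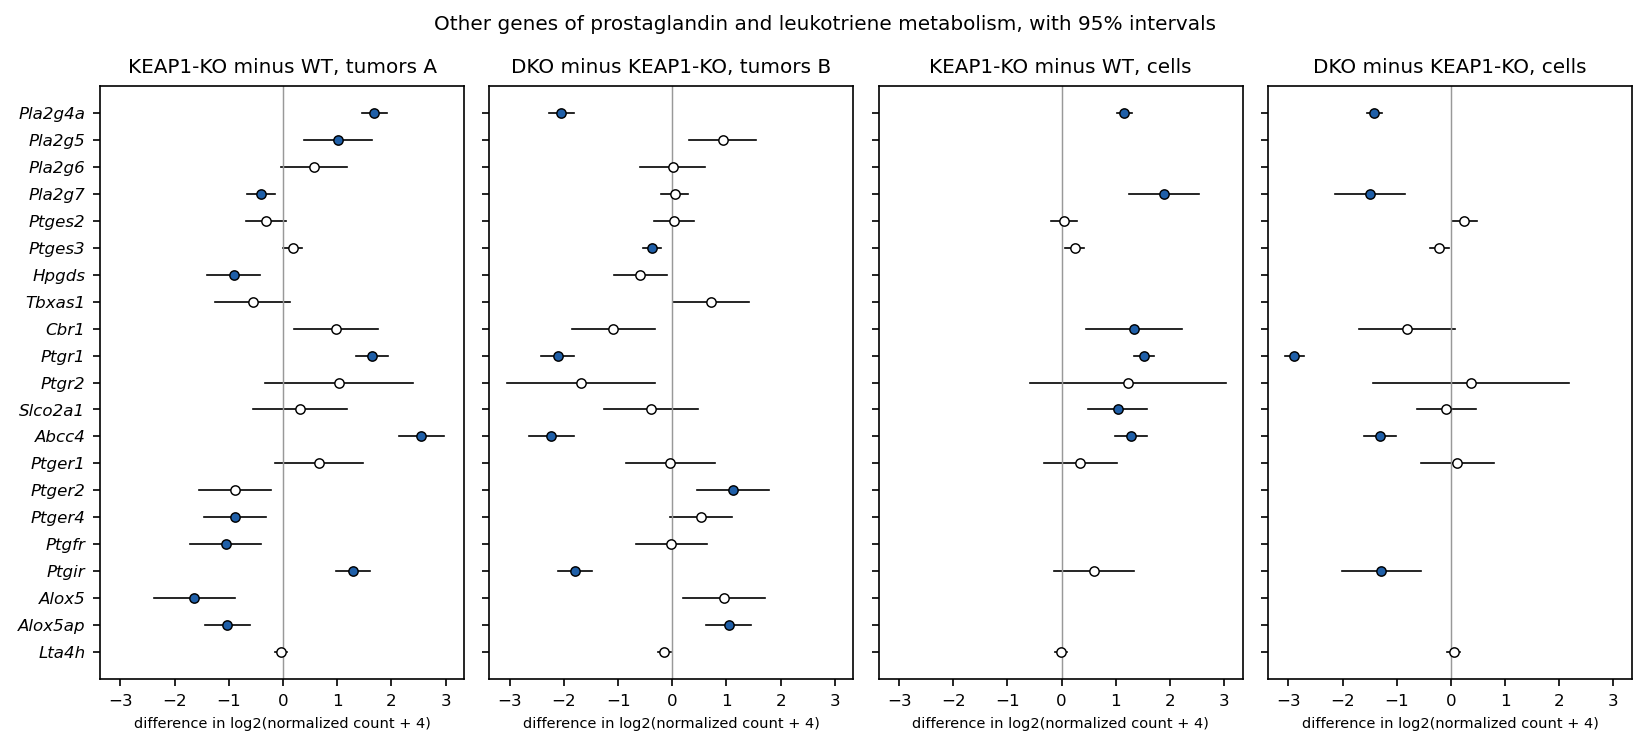
Differences in log2(normalized count + 4) of 21 other genes of prostaglandin and leukotriene metabolism, 1 row per gene, in 4 comparisons. Points are limma estimates with 95% intervals, filled where the adjusted p is under 0.05, and a gene without a point was not tested there. Pla2g4a, Ptgr1 and Abcc4 lie right of 0 in both KEAP1-KO panels and left of 0 in both DKO panels, and Alox5ap does the reverse in tumors.

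Genes of IL-1 signalling and the inflammasome fell more often than they rose in KEAP1-KO tumors, with 11 of 22 lower and 1 higher (median -0.87, all rows -0.03), beside 7.49% of all rows lower and 5.61% higher. The leukocyte sums were lower in the same tumors (508 to 583 against 1971 to 2448), as were 12 of 13 macrophage and monocyte markers. In B the sums were 767 to 970 in KEAP1-KO and 1447 to 2130 in DKO tumors, and their part in the counts of this and the following lists was not tested. The row of Irak2 is a retained intron, those of Il1r2 and Casp4 are targets of nonsense-mediated decay and that of Casp1 is not in the annotation. Irak2, a kinase of the IL-1 receptor pathway, fell by 1.32 (adjusted p = 4.47e-06), the receptor Il1r1 by 0.95 (adjusted p = 1.14e-05) and the decoy receptor Il1r2 by 1.81 (adjusted p = 0.000994). Casp4, which encodes the mouse caspase-11, was the gene that rose, by 1.59 (adjusted p = 1.43e-06). In DKO tumors 3 of 22 rose and none fell (median 0.47), beside 4.22% and 4.64% of all rows: Casp1 by 1.18, Il1r1 by 0.48 and Il1r2 by 1.46 (adjusted p of 0.00767 or less). Il1r1 was also measured in cells, where it fell by 1.14 in KEAP1-KO (adjusted p = 2.28e-05) and rose by 0.66 in DKO (adjusted p = 0.00298), and Casp4 rose by 2.64 and fell by 2.42 in the same cells. Of 15 genes tested in cells, 3 rose and 1 fell in KEAP1-KO (8.13% and 7.33% of all rows), and 2 rose and 3 fell in DKO (3.98% and 4.85%). Il1rl1, the receptor of interleukin-33, rose in both steps, by 1.37 and 1.61.

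In the IL-6 family, 5 of 12 genes fell and 2 rose in KEAP1-KO tumors (median -0.38), beside 7.49% and 5.61% of all rows. The cytokine Osm fell by 2.02 (adjusted p = 0.000342) and Lif rose by 0.93 (adjusted p = 0.00293). In DKO tumors 1 of 12 was called, Clcf1, a retained intron, which fell by 1.01 (adjusted p = 0.000228), a count near the 8.86% of all rows. In KEAP1-KO cells 3 of 8 rose, led by a retained intron of the receptor gene Osmr with 2.28, and 2 fell (8.13% and 7.33% of all rows), and in DKO cells 3 fell (4.85% of all rows), Osmr by 1.16. Among 22 genes of TNF and NF-kappaB signalling 2 fell in KEAP1-KO tumors, Rel by 0.83 and Nfkbie by 0.93, and 2 rose in DKO tumors, Traf1 by 0.80 and Rel by 0.41 (adjusted p of 0.0423 or less). These counts are near the background of 13.1% and 8.86% of all rows called and are no result about the list. In cells 5 of 22 rose and 1 fell in KEAP1-KO (8.13% and 7.33% of all rows), and 2 rose and 1 fell in DKO (3.98% and 4.85%).

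Around IL-10 and TGF-beta, 5 of 22 genes fell and 1 rose in KEAP1-KO tumors, and 5 rose and 1 fell in DKO tumors (medians -0.14 and 0.21, all rows -0.03 and 0.00), beside 7.49% lower and 5.61% higher, and 4.22% higher and 4.64% lower, of all rows. The rows of Il10ra and Tgfbi are targets of nonsense-mediated decay and that of Thbs1 a retained intron. Il10ra, the IL-10 receptor chain of leukocytes, fell by 2.37 (adjusted p = 7.15e-07) and rose by 1.41 (adjusted p = 0.000226). Tgfbi, a matrix protein induced by TGF-beta, fell by 2.33 and rose by 1.16, Nrros, which holds latent TGF-beta on myeloid cells, fell by 1.89, and Thbs1, an activator of latent TGF-beta, rose by 2.37 in DKO tumors. In cells 5 of 18 rose and 3 fell in KEAP1-KO (8.13% and 7.33% of all rows), and 2 rose and 4 fell in DKO (3.98% and 4.85%), with Tgfbi falling in both steps (by 1.45 and 0.57).

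Over the 16 tumors each gene was set beside all rows with a symbol. Il1b was most like Mmp8 (Pearson r = 0.985), Srgn (0.979) and Csf3r (0.969), of which Mmp8 and Csf3r are neutrophil genes. The Csf3r row is a processed transcript. The summed neutrophil markers overlapped between KEAP1-KO (101 to 255) and DKO tumors (225 to 299) of B, whereas Il1b did not. Il1rn was most like Xylt1, Aqp9 and Plek (0.966 to 0.963) and Tnf most like the complement receptor C5ar1 (0.986), H2-K1 and Fmnl1. Ptgs2 was most like Dusp4 (0.983), a phosphatase of MAP kinases, Gpcpd1 and the transcription factor Ets2, and Ptges most like Tomm20 (0.945), Spn-ps and Trib1. The rows nearest to Tgfb1 were Chrnb2, Thoc3 and Mrps16 (0.884 to 0.844), and those nearest to Ptgs1 were Gm44645, Gm10441 and Vasn (0.904 to 0.885). These values are descriptions over tumors that share 4 groups. Ptgs2 and Ptges had r = 0.912 over all tumors and 0.883 after each group's mean was subtracted. Il1b and Ptgs2 had r = -0.563 over all tumors but 0.792 within groups, where WT tumor 4 was the highest of its group for both genes, for Il1rn, Il6 and Ptges, and for the summed neutrophil markers (1840 normalized counts, group median 672).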

How the data were processed

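RNA-seq of 12 libraries of cultured cells and 16 tumors was used, 4 in each of 7 groups taken from the sample titles. According to the methods, the authors removed ribosomal RNA, made strand-specific libraries and quantified transcripts with Salmon against a GENCODE mouse reference. The table that the authors deposited holds log2 values. Their form, log2(normalized count + 4), was inferred from the numbers themselves: the lowest is exactly 2.0 and 100.0% of the low values came out as whole reads, within 0.1 read, divided by 1 factor per library. The methods name TPM, which these values are not. Intervals and floors from reads cover counting error only.

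A row entered a fit where 4 or more of its libraries had 5 normalized counts or more. The test was that of limma (version 3.58.1, under R 4.3.3, eBayes with a trend; 16 tumors, 12 cell libraries, or all 28 for tumors against cells) with Benjamini-Hochberg adjustment over all rows tested and a threshold of 0.05. No count model was run, since the column is on a log scale. On simulated data for KEAP1-KO against WT tumors (34215 rows, 200 changed), 64% of the changes of log2 1 and 92% of those of log2 2 were recovered, and 6.02% of the calls were false. For KEAP1-KO against WT cells (29744 rows) these were 58%, 88% and 5.81%. Changes were planted only in rows with a mean of at least 25 normalized counts, with normal noise on the log2 scale. These rates therefore do not cover low rows such as Tnf and Il6. Nothing in the labels says that cell libraries came from separate cultures, so their p-values measure the spread between these libraries.

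The 10 genes, the pathway lists and the marker lists were chosen with earlier results of these data known. Named were every gene of the set, from each pathway list genes among the 3 with the lowest adjusted p of each direction in the 4 comparisons of adjacent genotypes, and for each gene the 3 rows with the highest Pearson correlation over 16 tumors. 1 gene that this rule names is not reported here. Marker lists of T, NK, B and dendritic cells, mast cells, endothelium, fibroblasts, keratinocytes and skeletal muscle were also used. GENCODE vM21 gave the kind of each transcript, and RefSeq the promoters; the table itself has no coordinates. Alternatives were a pseudocount of 1, no filter, a mean of at least 25, quantile normalization, rescaling after leaving out the 20 highest rows, a fit of only the groups compared, a fit with no trend, blocks by replicate number, and each library left out. Summed annotated rows, the levels relative to markers (with 4 and with nothing added) and the summed reads without each library were added after the data were seen. Tables were read and summarised with Python 3.11.15, numpy 2.4.6 and pandas 2.3.3.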

Additional observations from a re-analysis of the deposited data

Results flagged for a closer look

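Of 56 sets of 4 libraries (8 genes in 7 groups), 7 had a library far from the other 3 for the spread of the set. For continuous normal values chance gives about 1 in 20. That rate does not hold for sets of few reads or with all values at 2.0. All values are log2(normalized count + 4). The lowest Il1b value of KEAP1-KO tumors B was 4.46 (the others 5.38 to 5.55). The highest Il1rn value of WT cells was 2.35 with the others at 2.0, which is 1 read against 0. The highest Il1rn value of WT tumors was 7.02 (the others 6.50 to 6.58). The highest Tnf value of KEAP1-KO tumors A was 2.64 (the others 2.31 to 2.37), which is 2 reads against 1 in each of the others. The lowest Tgfb1 value of KEAP1-KO cells was 4.25 (the others 4.57 to 4.61). The highest Ptgs1 value of DKO tumors was 8.77 (the others 8.22 to 8.29), and the highest Ptges value of KEAP1-KO tumors B was 13.19 (the others 12.92 to 12.94).

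The difference between KEAP1-KO and WT was called as unlike in tumors and cells for Ptgs2 (-1.40, tumors minus cells on the log2 scale, adjusted p under 0.05 by limma). That call held in only 10 of 24 alternatives (adjusted p by limma between 0.00267 and 0.0991). The same contrast gave -2.81 for Il1b, -1.89 for Il1rn and -1.51 for Tnf, and for DKO minus KEAP1-KO 1.78 for Il1b. These 4 values say nothing of cells: the genes had at most 2 reads in any cultured library, Il1b none, so that for Il1b the contrast is the difference between tumors, and for Il1rn and Tnf it differs from that only by these few reads.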

How the results depend on the processing

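Over the alternatives no result for a single gene changed its direction among those called, and of the alternative values 1394 kept their side of the threshold, 36 lost a call and 18 gained 1. In DKO against WT tumors, 2 genes were called, but 1 with only the groups compared in the fit, 1 with no trend, and between 0 and 3 when a library was left out. For DKO minus KEAP1-KO, tumors B minus cells, 1 gene was called (Il1b, which had no reads in cells), but 3 with rescaling without the 20 highest rows, 2 with no trend, and between 1 and 2 when a library was left out. The causes were not tested. In DKO against KEAP1-KO tumors 47.7% of all called rows were higher, and 61.7% with rescaling; for DKO minus KEAP1-KO, tumors B minus cells, 57.7% became 71.8%, 69.0% with no trend and 47.0% with a mean of at least 25, and for KEAP1-KO minus WT, tumors A minus cells, the latter moved 27.9% to 39.3%. In DKO against WT tumors rescaling moved 43.3% to 59.9%. Against cells, calls higher in tumors were 60.3% to 63.6% and became 74.2% to 79.5% with rescaling, and 48.0% to 50.9% with quantile normalization in WT, KEAP1-KO B and DKO. With a mean of at least 25 the calls against cells fell from 14450 to 9365 (53.0% higher) in WT, from 14446 to 9624 in KEAP1-KO B and from 16190 to 10073 in DKO, fewer rows being tested. Same-numbered libraries of different groups did not deviate together (correlations of -0.03 to 0.03), so the numbers were not taken as pairs. With the replicate block the calls over all rows went from 4483 to 2388 in KEAP1-KO against WT tumors, from 3031 to 1774 in DKO against KEAP1-KO tumors, from 4599 to 4063 and from 2627 to 2182 in the same comparisons of cells, and from 56 to 0 between the KEAP1-KO tumors of B and A, where no filter gave 20, only the groups compared 6 and no trend 8 (75.0% higher against 92.9%). With the replicate block the genes called went from 5 to 4 (Ptges lost, adjusted p = 0.113) and from 6 to 5 (Tnf lost, 0.124) in the tumors and stayed at 3 and 3 in the cells, and Ptgs2 was called lower in KEAP1-KO tumors B than in cells (0.0353). The planned sum of rows with the same symbol could not be made, since each gene has 1 such row. Few reads limit Tnf and Il6, and in cells Il1b, Il1rn, Il6 and Tnf were at or near 0 reads. The cell libraries were deeper (group medians of 6043367 to 7113034 reads) than those of the tumors (4758410 to 5381405).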

Other observations

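Fibroblast markers differed between the groups in which Ptgs1 was highest. The summed normalized counts of Pdgfra, Pdgfrb, Col1a1, Col3a1 and Dcn ranged from 10228 to 13293 in DKO tumors, 4631 to 9850 in WT tumors, 1897 to 4248 in KEAP1-KO tumors A and 2566 to 3093 in KEAP1-KO tumors B. Of these 5 genes 2 fell in KEAP1-KO against WT tumors and 2 rose in DKO against KEAP1-KO tumors. Endothelial markers, 4 genes, were not called in either comparison. NK cell markers fell in 3 of 3 tested in KEAP1-KO against WT tumors and rose in 2 of 3 in DKO against KEAP1-KO tumors. Their sums were 31.4 to 61.0 in WT tumors, at most 3.86 in both KEAP1-KO groups and 16.2 to 50.2 in DKO tumors. All 5 NK markers were under 5 normalized counts in both KEAP1-KO groups, so those tested passed the filter through the WT and DKO tumors. T cell markers fell in 2 of 3 tested in KEAP1-KO tumors, and none of 3 was called in DKO tumors. Dendritic cell markers fell in 2 of 5 in KEAP1-KO tumors, and 1 of 5 rose and 1 fell in DKO tumors. Of 2 mast cell markers 1 fell in KEAP1-KO tumors, 1 B cell marker and 2 keratinocyte markers were not called, and of 2 skeletal muscle markers 1 rose in DKO tumors. Of all rows 7.49% fell and 5.61% rose in KEAP1-KO against WT tumors, and 4.22% rose and 4.64% fell in DKO against KEAP1-KO tumors. In lists this short a count of 1 or 2 genes is no result about the list. The part of the marker levels in the Ptgs1 and cytokine values was not tested.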
